A study of Mus musculus with 8 samples.

Results

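The 10 genes described here are feedback inhibitors of receptor tyrosine kinase and MAP kinase signalling, chosen by name from the 46078 genes of the deposited count table. They are the dual-specificity phosphatases Dusp1, Dusp4, Dusp5, Dusp6 and Dusp10, the Sprouty genes Spry1, Spry2 and Spry4, the Sprouty-related gene Spred1, and Errfi1. All 10 passed the filter on low counts, and 16495 genes in all were tested. The cells came from the epidermis of mice of the Lg5-egfp-ires-creert2/R26-tdTomato strain, in which EGFP and a tamoxifen-inducible Cre are expressed from the Lgr5 gene and the Cre switches on a red reporter, so that Lgr5 cells of the hair follicle and their later progeny carry the mark. All 8 libraries came from sorted, traced cells after injury of the skin barrier, and no uninjured group was analysed here. In 4 libraries regulatory T cells were present (Treg-sufficient) and in 4 they had been removed (Treg-depleted). Replicates 1 and 2 of each condition belonged to experiment 1 and replicates 3 and 4 to experiment 2. Age, the means and time of depletion, the kind of injury and the interval from injury to sorting were not stated in the sources used here. Nor is it stated whether each replicate was its own animal, so every p-value refers to the spread of these libraries, part of which may be technical.

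Growth factors of the EGF and FGF families bind receptor tyrosine kinases, which act through Ras, Raf and MEK to switch on the kinase ERK. Stress signals use parallel kinase chains that end in p38 and JNK. ERK induces transcription of its own inhibitors, and these shut the pathway at different levels. Errfi1 blocks EGF-family receptors, the Sprouty and Spred proteins act between receptor and Raf, and the Dusp phosphatases remove the activating phosphates from the MAP kinases. In skin, EGF receptor and FGF receptor signals govern the growth of follicle and epidermal keratinocytes and the closing of wounds.

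The libraries held 22330729 to 29975347 counts over genes, with 18605 to 23062 genes detected, the fewest in Treg-depleted replicate 2 and, among Treg-sufficient libraries, in replicate 3. Levels are CPM, read counts scaled to a common library size with TMM factors, which even out differences in RNA composition. Lgr5 itself stood between 308 and 518 CPM in every library, and the 8 follicle stem cell markers examined summed to 5279 to 10073 CPM. The 8 T cell markers examined summed to 7.63 and 5.67 CPM in the Treg-sufficient and 3.37 and 3.20 CPM in the Treg-depleted libraries of experiment 1. In experiment 2 they summed to 13.0 and 7.42 CPM in the Treg-sufficient and 6.20 and 9.90 CPM in the Treg-depleted libraries. The 2 that were tested had negative log2 fold changes in both experiments, and 0 were called. Cd3e and Cd3g, of that list, were at or near 0 throughout, and Foxp3, which defines regulatory T cells, did not pass 0.799 CPM. The 5 regulatory T cell markers together summed to 40.2 and 46.5 CPM in the Treg-sufficient and 80.3 and 52.5 CPM in the Treg-depleted libraries of experiment 1, nearly all of it from Tnfrsf18 and Ikzf2, with 0 of 4 tested called. These libraries of sorted follicle cells give no check of the depletion. Treg-sufficient replicate 2 held 78279 reads of Xist, a transcript of female cells, and Treg-depleted replicate 2 held 1608, against 29 to 56 in the other libraries. Leaving both out changed several counts of members, as given below. A gene was called where edgeR's quasi-likelihood test gave a Benjamini-Hochberg adjusted p under 0.05. In bulk libraries such as these, fewer cells expressing a gene and less RNA per cell cannot be told apart.

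Promoters of Dusp1, Errfi1, Dusp5 and Dusp6 are shown first, because they differ in the elements they hold. The choice does not follow the calls given below: Spry1, called in experiment 1, is not printed, and Dusp5 was not called. Promoters were placed by RefSeq start sites on build GRCm38.p6 and were examined for 8 of the 10 members. Those of Dusp4 and Spry4 were not examined, which does not mean that RefSeq holds no start for them. The 250 bases upstream of each start were searched on both strands for the cyclic AMP response element TGACGTCA, its core TGACG, the AP-1 site TGANTCA with C or G at N, the serum response element known as the CArG box, the ETS site CCGGAA, the glucocorticoid receptor core AGAACA and the TATA box TATAAA. The core TGACG is contained in the full element, so each full element also counts as a core match. The windows printed below leave out bases that GENCODE places in an exon of the same gene. Capitals mark the cyclic AMP response element, its core and the CArG boxes, and the sequences run 5′ to 3′ on the strand of the gene.
Dusp1, chr17:26508520-26508722, minus strand: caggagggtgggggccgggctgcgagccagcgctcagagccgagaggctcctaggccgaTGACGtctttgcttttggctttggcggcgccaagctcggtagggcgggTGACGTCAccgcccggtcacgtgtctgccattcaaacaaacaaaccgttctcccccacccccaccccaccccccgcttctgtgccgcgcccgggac
Errfi1, the downstream of its RefSeq starts, chr4:150854820-150855069, plus strand: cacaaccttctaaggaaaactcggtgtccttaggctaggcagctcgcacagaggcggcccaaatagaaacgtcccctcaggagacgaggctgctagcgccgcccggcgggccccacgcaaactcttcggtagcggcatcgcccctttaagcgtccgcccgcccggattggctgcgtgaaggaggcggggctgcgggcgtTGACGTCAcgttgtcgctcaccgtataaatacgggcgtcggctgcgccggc
Dusp5, chr19:53528895-53529108, plus strand: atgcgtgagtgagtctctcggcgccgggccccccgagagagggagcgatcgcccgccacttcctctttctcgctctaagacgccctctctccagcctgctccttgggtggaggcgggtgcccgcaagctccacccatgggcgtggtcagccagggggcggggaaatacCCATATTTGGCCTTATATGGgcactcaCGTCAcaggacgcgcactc
Dusp6, chr10:99262981-99263230, plus strand: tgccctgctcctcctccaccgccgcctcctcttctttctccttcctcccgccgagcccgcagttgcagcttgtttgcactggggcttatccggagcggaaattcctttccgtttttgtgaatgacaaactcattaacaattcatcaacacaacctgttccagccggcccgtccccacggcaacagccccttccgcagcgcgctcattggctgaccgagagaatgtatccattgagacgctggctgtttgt
The Dusp1 and Errfi1 promoters each held a full cyclic AMP response element, at positions -143 to -136 and -51 to -44 from the start, and 1.55% of the 32851 promoters searched did so. Dusp1 also held a separate core at -191 to -187. Among all promoters 17.8% held a core. Errfi1 carried a TATA box at -28 to -23, found in 12.4% of promoters. The Dusp5 promoter held adjoining CArG boxes at -82 to -73 and -72 to -63, an element found in 1.47% of promoters, and a core at -55 to -51. The Dusp6 window, printed for contrast, held none of the elements searched, and neither did those of Dusp10, Spry1, Spry2, Spred1 or the upstream start of Errfi1. For the remaining elements the shares of all promoters were 4.46% for AP-1, 12.0% for ETS and 16.1% for the glucocorticoid receptor core. These matches describe letters in a window and say nothing of binding.

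Per kilobase of exon, which allows genes to be compared, Dusp6 was the most abundant inhibitor in Treg-sufficient cells, at 43.3 ± 5.3 CPM per kb (mean ± SD, n = 4). Spred1 followed at 26.3 ± 4.9, Dusp1 at 20.2 ± 9.1, Errfi1 at 16.3 ± 4.8, Spry2 at 14.6 ± 1.3 and Spry1 at 8.45 ± 1.25 CPM per kb. The 4 remaining genes were low: Dusp10 stood at 2.72 ± 0.81, Dusp5 at 2.17 ± 0.76, Dusp4 at 0.852 ± 0.420 and Spry4 at 0.746 ± 0.178 CPM per kb. Among neighbours in this order the spreads of Spred1 and Dusp1, Dusp1 and Errfi1, Errfi1 and Spry2, Dusp10 and Dusp5, and Dusp4 and Spry4 overlapped. Among the members, Dusp6 was thus the leading phosphatase and Spry2 the leading Sprouty gene in these follicle cells.

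Depletion of regulatory T cells went with higher levels of 4 inhibitors in experiment 1: Errfi1, Dusp1, Dusp6 and Spry1 rose 6.09-fold, 5.51-fold, 3.09-fold and 2.48-fold. That was 4 of 10 members called, all higher, where 0.606% of all genes tested were called in that experiment and 0.224% were called higher. Spry2 and Spry4 had unadjusted p-values under 0.05 as well, giving 6 of 10 members against 4.59% of all genes on the higher side. In experiment 2 no member was called. DESeq2 called 1 gene, and edgeR's test without the filter on low counts called 132, with no member among them. With the filter edgeR's test called no gene (0% of those tested), with 288 genes at an unadjusted p under 0.05. There Dusp6 alone among members had an unadjusted p under 0.05, against 0.849% of all genes on the higher side, and no member had one without Treg-sufficient replicate 3, Treg-depleted replicate 3 or Treg-depleted replicate 4. Without both libraries with the most Xist reads 2 members did. The level of each member in every library is shown in the plot of CPM by experiment.

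**Figure D1:**
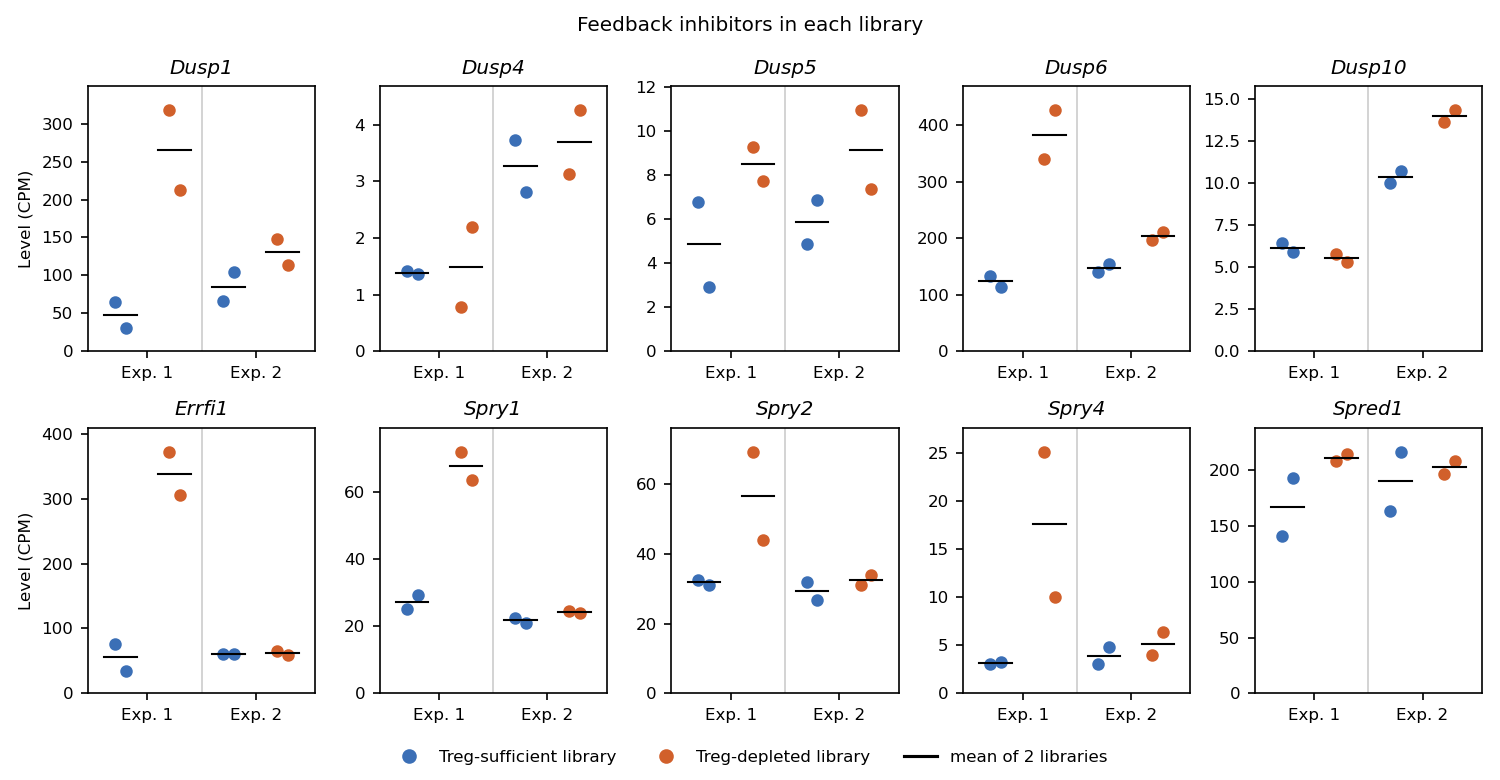
Level of each feedback inhibitor in CPM (linear axis from 0, its own scale in each panel). Each point is 1 library, blue for Treg-sufficient and orange for Treg-depleted, with experiment 1 left and experiment 2 right of the grey line, and black bars are means of 2 libraries. Errfi1, Dusp1, Dusp6 and Spry1 are high in both Treg-depleted libraries of experiment 1, while Dusp10 and Dusp4 are not.

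Errfi1 (ENSMUSG00000028967, GRCm38 chromosome 4, 150853919 to 150868892, plus strand), whose product binds and silences the kinase domain of EGF-family receptors, showed the widest contrast between the experiments. Its level was 76.1 and 35.0 CPM in the Treg-sufficient libraries of experiment 1 and 372 and 305 CPM in the Treg-depleted ones. In experiment 2 it was 60.6 and 61.1 CPM with regulatory T cells and 65.9 and 59.2 CPM without. The groups were far apart in experiment 1 and overlapped in experiment 2. The log2 fold change was 2.61 (SE 0.33, 95% interval 1.85 to 3.37, adjusted p = 0.0247, edgeR) in experiment 1 and 0.04 (SE 0.31, interval -0.68 to 0.76, adjusted p = 1.0) in experiment 2. The difference of these effects was 2.57 (SE 0.45) with an unadjusted p of 0.000447 and an adjusted p of 0.233, so it was not called.

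Dusp1 (ENSMUSG00000024190, GRCm38 chromosome 17, 26505590 to 26562128, minus strand) encodes a nuclear phosphatase of p38, JNK and ERK and is itself an immediate early gene. It stood at 65.5, 30.7, 66.5 and 104 CPM in Treg-sufficient replicates 1 to 4 and at 318, 212, 148 and 113 CPM in Treg-depleted replicates 1 to 4. Every Treg-depleted library lay above every Treg-sufficient one, though replicates numbered 4 were close. In experiment 1 the log2 fold change was 2.46 (SE 0.40, 95% interval 1.54 to 3.38, adjusted p = 0.0482, edgeR), which is just inside the threshold. In experiment 2 it was 0.61 (SE 0.38, interval -0.27 to 1.49, adjusted p = 1.0). The interaction was 1.85 (SE 0.54, adjusted p = 0.561). Dusp1 shares 11 bases of exon with Ergic1 on the opposite strand. The windows of Dusp1 and of the downstream Errfi1 start, shown above, both lie inside the span that GENCODE gives the gene.

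Dusp6 (ENSMUSG00000019960, GRCm38 chromosome 10, 99263231 to 99267489, plus strand) is a cytoplasmic phosphatase of ERK, and its transcript is widely used as a readout of ERK activity. Its level was 134, 114, 140 and 154 CPM in Treg-sufficient replicates 1 to 4, and 339, 426, 196 and 210 CPM in Treg-depleted replicates 1 to 4. All 4 Treg-depleted libraries again lay above all 4 Treg-sufficient ones, in both experiments by more than the gap between replicates. The log2 fold change was 1.63 (SE 0.17, 95% interval 1.25 to 2.01, adjusted p = 0.0144, edgeR) in experiment 1, the lowest adjusted p of any member. It was 0.46 (SE 0.16, interval 0.09 to 0.84, unadjusted p = 0.0209, adjusted p = 1.0) in experiment 2. The interaction of 1.16 (SE 0.23) had an adjusted p of 0.299.

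Dusp5 and Dusp4 encode nuclear phosphatases that act on ERK and, for Dusp4, also on JNK. Dusp5 (ENSMUSG00000034765, chromosome 19, 53529109 to 53542431, plus strand) was low, at 6.79, 2.94, 4.88 and 6.89 CPM in Treg-sufficient replicates 1 to 4 and 9.31, 7.74, 11.0 and 7.38 CPM in Treg-depleted replicates 1 to 4. The groups did not overlap, but replicate 4 of the Treg-sufficient and of the Treg-depleted libraries lay close. The log2 fold change was 0.81 (SE 0.43, adjusted p = 0.557, edgeR) in experiment 1 and 0.64 (SE 0.42, adjusted p = 1.0) in experiment 2, neither called. The difference of these effects was 0.17 (SE 0.60, 95% interval -1.21 to 1.56). An antisense gene, AC137853.2, covers 22.1% of its exon bases, and whether the counting used the strand is not known here. Dusp4 (ENSMUSG00000031530, chromosome 8, 34807297 to 34819894, plus strand) was lowest of the member phosphatases, at 0.790 to 2.20 CPM in experiment 1 and 2.81 to 4.26 CPM in experiment 2. Its conditions overlapped in both experiments, with log2 fold changes of 0.09 (SE 0.53) and 0.18 (SE 0.51).

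Dusp10 (ENSMUSG00000039384, chromosome 1, 184013302 to 184075636, plus strand) encodes a phosphatase of p38 and JNK rather than ERK. Its level was 6.43 and 5.91 CPM in Treg-sufficient and 5.81 and 5.30 CPM in Treg-depleted libraries of experiment 1. In experiment 2 it was 10.03 and 10.7 CPM with regulatory T cells and 13.6 and 14.3 CPM without. Every library of experiment 2 thus lay above every library of experiment 1, which also held for Dusp4. The share of all genes separated in this way was not counted. With the filter on low counts, Dusp10 was the only member that edgeR's test called between the experiments. Its log2 difference was 1.04 (SE 0.17, adjusted p = 0.0446, edgeR), experiment 2 minus experiment 1. That is 1 of 10 members, where 1.62% of all genes were called between experiments and 0.903% were called higher in experiment 2. No member was called there when any library other than Treg-sufficient replicate 1 was left out, nor without both libraries with the most Xist reads. DESeq2 called 3 members there, 2 higher and 1 lower in experiment 2, among 2167 genes. Without the filter on low counts edgeR's test called 5 members, 2 higher and 3 lower, among 2443 genes. Between conditions the values went opposite ways, at -0.15 (SE 0.22) in experiment 1 and 0.43 (SE 0.21) in experiment 2, and neither effect nor their difference of -0.58 (SE 0.31, adjusted p = 0.941) was called.

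Among the Sprouty genes, Spry1 (ENSMUSG00000037211, chromosome 3, 37639947 to 37644598, plus strand) was the only one called in experiment 1. It stood at 25.3 and 29.3 CPM in the Treg-sufficient libraries of experiment 1 and at 72.0 and 63.6 CPM in the Treg-depleted ones, against 22.5, 21.2, 24.6 and 23.9 CPM in experiment 2. The pairs of experiment 1 were tight and well apart, and Spry1 rose by 1.31 on the log2 scale (SE 0.15, 95% interval 0.96 to 1.67, adjusted p = 0.0206, edgeR). In experiment 2 the log2 fold change was 0.16 (SE 0.15, interval -0.20 to 0.51, adjusted p = 1.0), and the interaction of 1.16 (SE 0.22) had an adjusted p of 0.273. An opposite-strand gene, Gm42922, covers 24.4% of Spry1 exon bases and did not pass 0.621 CPM in any library.

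Spry4 (ENSMUSG00000024427, chromosome 18, 38586247 to 38601415, minus strand) was scarce in Treg-sufficient cells, at 3.02, 3.31, 3.05 and 4.80 CPM in replicates 1 to 4. In Treg-depleted replicates 1 to 4 it was 25.1, 10.1, 4.03 and 6.35 CPM. The 2 high libraries of experiment 1 differed from each other by more than 2-fold, and the log2 fold change of 2.48 (SE 0.48, 95% interval 1.36 to 3.60) had an adjusted p of 0.0741 in edgeR's test. In experiment 2 the groups overlapped, with a log2 fold change of 0.40 (SE 0.47). Spry2 (ENSMUSG00000022114, chromosome 14, 105891947 to 105896819, minus strand) stood at 32.6, 31.2, 31.8 and 26.7 CPM in Treg-sufficient and 69.2, 44.1, 31.0 and 34.0 CPM in Treg-depleted replicates 1 to 4. Here Treg-depleted replicate 1 was the highest library, and the log2 fold change in experiment 1 was 0.83 (SE 0.22, adjusted p = 0.174). It was 0.15 (SE 0.22) in experiment 2.

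Spred1 (ENSMUSG00000027351, chromosome 2, 117121374 to 117182279, plus strand), which brings the Ras-inactivating protein neurofibromin to the membrane, was the steadiest member. It ranged from 141 to 216 CPM in Treg-sufficient and from 197 to 214 CPM in Treg-depleted libraries, and the conditions overlapped over all 8 libraries. Its log2 fold changes were 0.34 (SE 0.19, 95% interval -0.11 to 0.79, adjusted p = 0.597, edgeR) in experiment 1 and 0.09 (SE 0.19, interval -0.35 to 0.54) in experiment 2. Both upper bounds lie below 1 log2 unit.

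**Figure D2:**
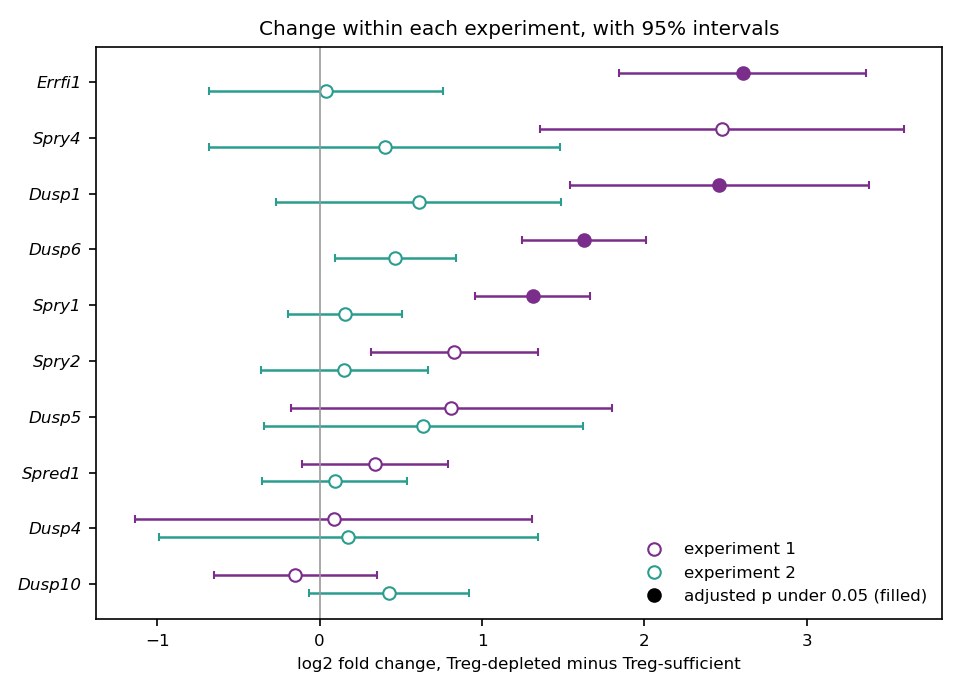
Log2 fold change, Treg-depleted minus Treg-sufficient, of each inhibitor in experiment 1 (purple) and experiment 2 (green), with 95% intervals as bars. Filled points passed an adjusted p of 0.05. The 4 filled points are Errfi1, Dusp1, Dusp6 and Spry1 in experiment 1, from 1.31 to 2.61, and no interval of experiment 2 other than that of Dusp6 lies wholly above 0.

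Without dividing the libraries by experiment, the model for condition with a term for experiment called no member and no gene by edgeR's test (0% of those tested). DESeq2 called 84 genes, Dusp1 and Dusp6 among them. Without the filter on low counts edgeR's test called 820 genes, Dusp1, Dusp6, Errfi1, Spry1 and Spry4 among them. With the filter, on edgeR's unadjusted scale, 7 of 10 members were higher with p under 0.05, against 3.50% of all genes. These were Dusp1, Dusp5, Dusp6, Errfi1, Spry1, Spry2 and Spry4, with log2 fold changes of 0.49 (Spry2) to 1.53 (Dusp1), all at an adjusted p of 0.686 to 0.694 in edgeR's test. The 7 became 3 without Treg-sufficient replicate 2, 4 without Treg-sufficient replicate 1 or without Treg-depleted replicate 1, 6 or 7 without any other single library, and 2 without both libraries with the most Xist reads. All 10 members had positive values, with a median of 0.73 against 0.00 over all genes tested, 8303 of which were positive. Dusp1, Dusp5 and Dusp6 had all 4 Treg-depleted above all 4 Treg-sufficient libraries, which held for 1.27% of all genes. Within experiment 1 both Treg-depleted libraries lay above both Treg-sufficient ones for 8 members, all but Dusp4 and Dusp10, and for 18.6% of all genes. In experiment 2 this held for Dusp1, Dusp5, Dusp6, Dusp10 and Spry1, and for 16.7% of all genes. The members were chosen with results of these data known, so these counts describe them and do not test them.

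Whether the effect differed between the experiments was tested directly. The interaction called no member and no gene (0%), while 5 of 10 members (Dusp1, Dusp6, Errfi1, Spry1 and Spry4) had an unadjusted p under 0.05 with the larger effect in experiment 1, against 2.01% of all genes. The median member effect was 1.07 in experiment 1 and 0.29 in experiment 2, against 0.01 and 0.00 over all genes tested. Over all genes 923 had an unadjusted p under 0.05. With all 8 libraries and the filter on low counts, edgeR's test thus called no difference between the experiments for a member. Without that filter it called 534 genes, Dusp1, Dusp6, Errfi1, Spry1 and Spry4 among them. DESeq2 called 182 genes, Dusp1, Dusp6, Errfi1 and Spry1 among them. Errfi1 was also called by edgeR without both libraries with the most Xist reads (log2 difference 2.20, adjusted p = 0.0344) and without Treg-sufficient replicate 1 (3.23, adjusted p = 0.0208).

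The calls of experiment 1 depended on the libraries used. Of the 10 members, 0 were called without Treg-depleted replicate 3, 1 without any one of the 4 Treg-sufficient replicates or without Treg-depleted replicate 4, 2 without Treg-depleted replicate 1, and 6 without Treg-depleted replicate 2. Where a library of experiment 1 was left out, the lone remaining sample of its group was assumed to vary like the other groups. Over the alternatives run, the adjusted p reached 0.123 for Dusp1, 0.0784 for Dusp6, 0.0696 for Errfi1 and 0.144 for Spry1, and their log2 fold changes stayed positive, at 1.98 to 3.11, 1.30 to 1.76, 2.11 to 3.27 and 1.19 to 1.46. Without both libraries with the most Xist reads 5 members were called, Spry4 being added, and 6 were called with DESeq2 or without the libraries with the fewest genes detected, Spry2 and Spry4 being added.

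The balance between members of the same family was then compared. Dusp genes outside the 10 members, such as Dusp7 at 86.1 ± 9.7 CPM in Treg-sufficient cells, were not part of the sum. Of the summed level per kb of the 5 phosphatases, Dusp6 made up 63.8 ± 7.4% (SD, n = 4) in Treg-sufficient cells, Dusp1 28.0 ± 7.0%, Dusp10 3.92 ± 0.62%, Dusp5 3.10 ± 0.71% and Dusp4 1.21 ± 0.49%. In the 2 Treg-depleted libraries of experiment 1 Dusp1 made up 45.6% and 31.1%, and Dusp10 0.908% and 0.847%, against 3.12 to 4.62% for Dusp10 in the Treg-sufficient libraries. The Dusp10 share was lower than in any control while its own level in CPM was 5.81 and 5.30, so the share moved with the sum. Of the Sprouty genes, Spry2 made up 61.5 ± 2.8%, Spry1 35.4 ± 2.8% and Spry4 3.19 ± 1.07% in Treg-sufficient cells. Spry2 was 52.4% and 46.8% of the sum in the Treg-depleted libraries of experiment 1, below the lowest control share of 58.0%, and was 61.4% and 63.0% in those of experiment 2. These shares were not tested.

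**Figure D3:**
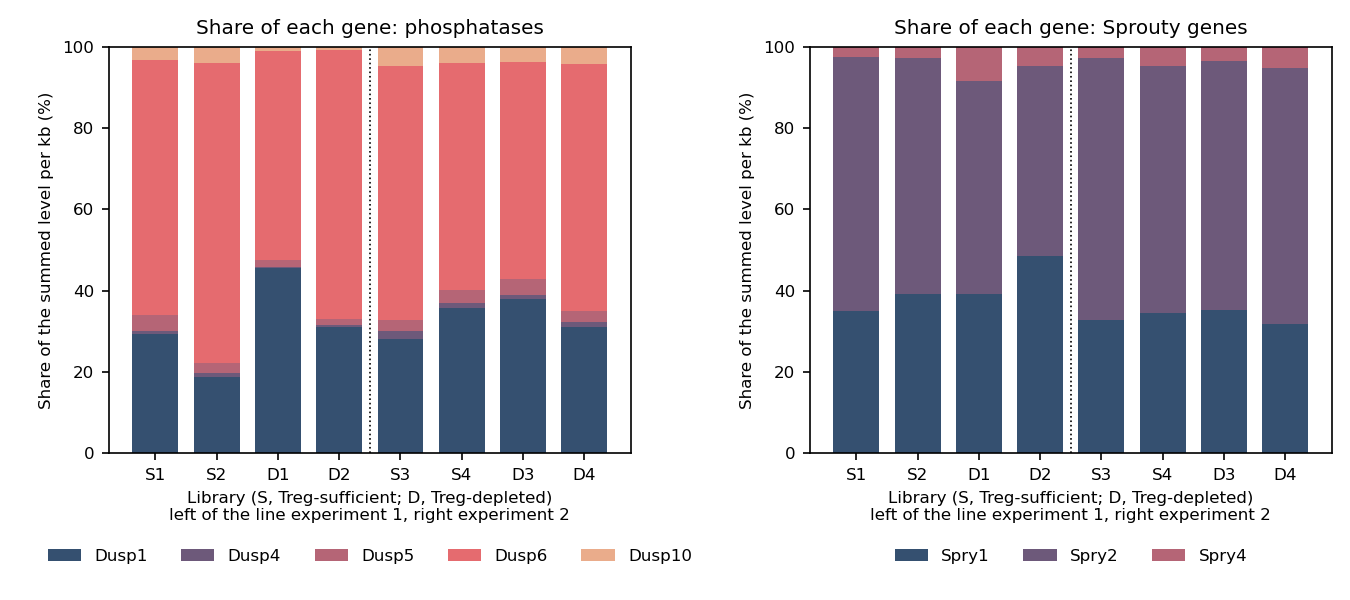
Share of each gene, in percent, in the summed level per kb of the 5 phosphatases (left) and the 3 Sprouty genes (right), as stacked bars from 0 to 100 for each of the 8 libraries. Dusp6 holds the largest share among the 5 phosphatases in all 8 libraries, and Spry2 among the 3 Sprouty genes in 7. In D2, Treg-depleted replicate 2, Spry1 (48.5%) passes Spry2 (46.8%).

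Genes elsewhere in the pathway were examined from lists by role. In experiment 1 no receptor (0 of 11 tested), no ligand (0 of 11), no component of the ERK cascade (0 of 24) and no component of the p38 and JNK arms (0 of 16) was called by edgeR's test. Over all genes tested 0.606% were called there, so lists of 11 to 24 genes would often hold none. On the unadjusted scale 1 receptor, 1 ligand, 2 ERK cascade genes and 1 p38 or JNK gene were higher with p under 0.05, and 1 receptor and 1 ligand lower. Of all genes tested 4.59% were higher on that scale, and 1067 of 16495 were lower. The receptors of highest level, Fgfr1 and Fgfr2, had log2 fold changes of 0.40 (SE 0.23) and -0.59 (SE 0.22). The ligand genes Fgf1 and Tgfa stood at 1.11 (SE 0.49) and 0.72 (SE 0.29). Mapkapk2, a p38 substrate kinase, and Map3k7, which encodes TAK1, gave 0.24 (SE 0.15) and -0.05 (SE 0.13). In the same experiment 0 of 23 other attenuators of the pathway were called, with 3 higher and 1 lower on the unadjusted scale and a median of 0.23. Of these Lrig1, a follicle stem cell gene that restrains EGF-family receptors, stood at -0.72 (SE 0.19, adjusted p = 0.166) on the log2 scale, and Rasa1, a Ras-inactivating protein, one of 0.15 (SE 0.17).

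Of 15 tested targets of ERK signalling, 3 were called higher in experiment 1, namely Egr1, Klf6 and Etv5, where 0.224% of all genes were. On the unadjusted scale 10 were higher, against 4.59% of all genes, and the median log2 fold change was 1.18. The difference between these lists was not tested. Egr1, a transcription factor induced through ERK, stood at 246 and 185 CPM in the Treg-sufficient and 1401 and 1099 CPM in the Treg-depleted libraries of experiment 1, or 2.54 on the log2 scale (SE 0.28, adjusted p = 0.0167, edgeR). Etv5, an ETS factor induced by FGF signals, rose by 1.18 (SE 0.19, adjusted p = 0.0477), from 56.2 and 58.7 to 147 and 113 CPM. Fos, also of this list, was not called and varied widely among controls, from 125 CPM in Treg-sufficient replicate 2 to 947 in replicate 4. Ccnd1, encoding cyclin D1, was called higher in experiment 2 than in experiment 1 by 0.85 (SE 0.17, adjusted p = 0.0485) and not between conditions. Of the other lists Egr3 was also called higher in experiment 2, by 1.28 (SE 0.25), and the ligand gene Tgfa and the glucocorticoid-induced gene Zbtb16 were called lower, at -1.10 (SE 0.21) and -1.13 (SE 0.22), each with an adjusted p of 0.0483.

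A further list held immediate early genes, which respond within minutes to many stimuli, together with heat shock genes, and was called in part. Of these 24 genes 6 were called higher in experiment 1 (Egr1, Hspb1, Ier2, Jun, Jund and Klf6), against 0.224% of all genes. On the unadjusted scale 21 were higher, against 4.59% of all genes, and the median was 1.76. Ier2 stood at 55.9 and 39.7 against 156 and 176 CPM, and Jun at 214 and 120 against 604 and 500 CPM. The most abundant gene of the list, Hspa8, stood at 0.26 (SE 0.25) on the log2 scale and was not called. Of 12 genes induced by glucocorticoids 3 were called higher in experiment 1, Cebpd by 3.49 (SE 0.36), Tsc22d3 by 2.98 (SE 0.30) and Klf9 by 2.05 (SE 0.31), at adjusted p-values of 0.0151, 0.0144 and 0.0386 in edgeR's test. Tsc22d3, which encodes the glucocorticoid-induced leucine zipper, stood at 33.0 and 22.6 against 269 and 170 CPM there. The most abundant genes of the list, Sgk1 and Mt2, were not called, at 1.37 (SE 0.28, adjusted p = 0.0858) and 1.52 (SE 0.31, adjusted p = 0.0861). In experiment 2 none of the 3 was called, and Tsc22d3 was 20.6 and 28.2 against 32.0 and 26.6 CPM. Their part in the result for the inhibitors was not tested.

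**Figure D4:**
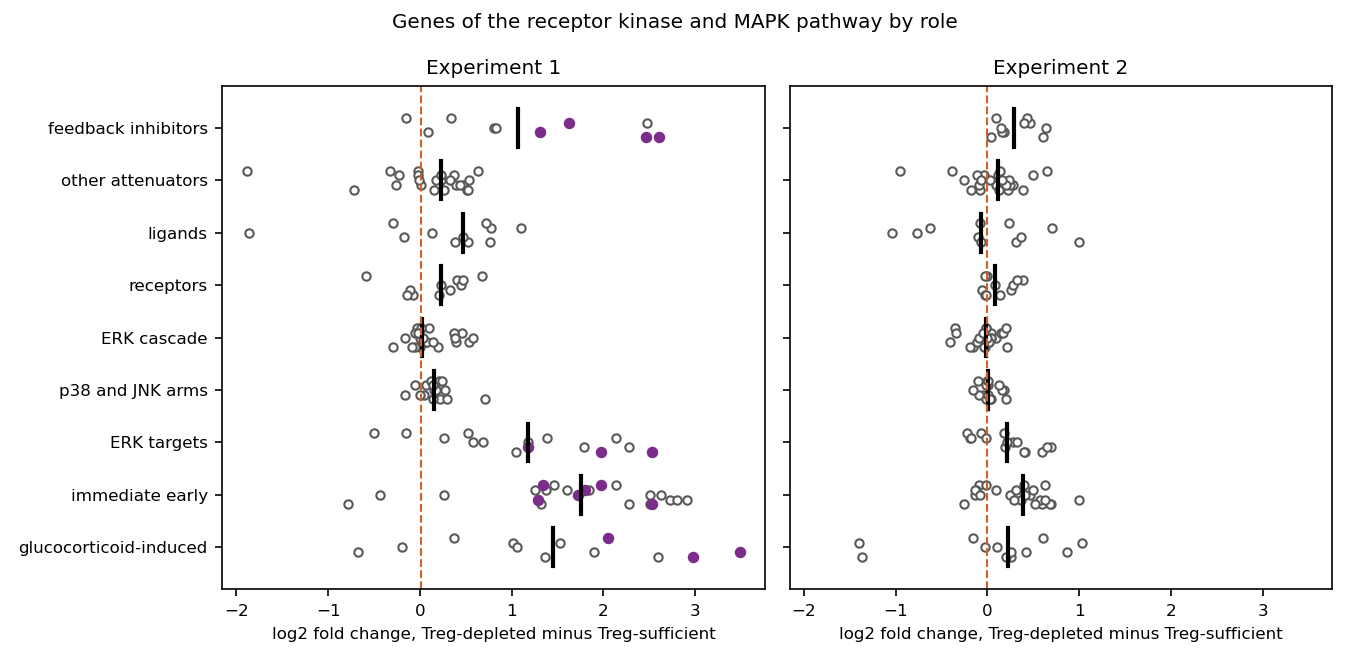
Log2 fold change, Treg-depleted minus Treg-sufficient, of genes of the pathway by role, in experiment 1 (left) and experiment 2 (right) on the same axis. Each point is 1 gene, filled where the adjusted p was under 0.05, black bars are list medians and the dashed line is the median of all genes tested. The medians of the inhibitors (1.07), ERK targets (1.18), immediate early and heat shock genes (1.76) and glucocorticoid-induced genes (1.45) stand to the right in experiment 1. Those of the ERK cascade (0.02), p38 and JNK arms (0.15), other attenuators (0.23), receptors (0.24) and ligands (0.47) are lower. The ERK target and immediate early lists share genes, Egr1, Klf6 and Fos among them.

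Markers of other cells were set beside these results. The 9 fibroblast markers summed to 101 and 43.5 CPM in the Treg-sufficient and 31.2 and 32.2 CPM in the Treg-depleted libraries of experiment 1, with 0 of 8 tested called. The 7 markers of differentiated keratinocytes summed to 1815 and 1560 CPM in the former and 1090 and 668 CPM in the latter, with 0 of 6 called. The 6 markers of basal keratinocytes summed to 13560 to 29183 CPM over all libraries, and those of melanocytes to 58.7 to 86.3 CPM in experiment 1 and 128 to 393 CPM in experiment 2. Of the melanocyte markers Pmel, Tyrp1 and Dct were called higher in experiment 2 than in experiment 1, the comparison in which Dusp10 was called, by 2.52, 2.64 and 2.48 on the log2 scale. The basal marker Itgb4 and the differentiation marker Krtdap were called lower there, at -0.90 and -1.60. Their part in the Dusp10 result was not tested. Marker sums for T cells, macrophages and Langerhans cells, neutrophils and endothelium did not pass 13.0, 6.87, 10.8 and 8.05 CPM in any library. The neutrophil gene Ly6g was at 0 throughout. In experiment 2 the fibroblast sums were 80.4 and 118 CPM in Treg-sufficient and 82.2 and 63.0 CPM in Treg-depleted libraries. Those of differentiated keratinocytes were 458 and 756 against 918 and 695 CPM. The median log2 fold changes of these 2 lists were 0.25 and 0.68 in experiment 2, against -1.14 and -1.20 in experiment 1. Whether these differences in markers play a part in the inhibitor levels was not tested.

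The genes most alike to 4 inhibitors over the 8 libraries were found by Pearson's r on log2 CPM among 11248 genes with a mean of at least 5 CPM. The points share their libraries and the high values of the 2 Treg-depleted libraries of experiment 1, so r is a description only. Dusp1 was most like Btg2 (r = 0.98), Egr1, Jun, Fosb and Ccn1, all immediate early genes, and Dusp6 followed at rank 35 (r = 0.90). Errfi1 was most like Jund (r = 0.99), Irf1, Ier2, Tsc22d3 and Cebpd, with Spry1 at rank 48 (r = 0.91) ahead of Dusp6 at rank 56. Dusp6 was most like St3gal4 (r = 0.98), Srf, Foxn2, Patl1 and Spopl. Spry4 was most like Etv5 (r = 0.98), Ctnnal1, Maml3, Plagl2 and Scaper, with Spry2 at rank 48 (r = 0.91). Dusp10 had a negative r with each of the 4, from -0.52 with Errfi1 to -0.02 with Dusp1.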

How the data were processed

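The authors deposited unnormalized read counts, 1 value per gene, for 8 libraries made with a stranded mRNA kit, per the labels' protocols. The submitters' processing notes name TopHat2 (version 2), SAMtools, HTSeq, DESeq2 and build GRCm38.p4, without their roles. The sources used here give neither the strand setting nor the annotation release. Reads of no gene made up 6.63 to 10.8% of reads, those of several genes 2.72 to 3.01% and those placed in several positions 26.2 to 30.6%, and all were left out. GENCODE M21 (GRCm38) gave symbols for 45229 of 46078 identifiers.

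Counts were fitted with edgeR 4.0.16 (R 4.3.3) over 16495 genes that passed filterByExpr (minimum count 10), after TMM scaling, by quasi-likelihood F-tests, and p-values were adjusted by Benjamini-Hochberg with a threshold of 0.05. One model had terms for condition and experiment. Another had 4 groups of 2 libraries that share 1 estimate of the spread, and gave the effect in each experiment and the interaction. Levels per kb use the union of exons. The steps were tested on simulated data. limma 3.58.1 and DESeq2 1.42.0 served as alternatives, as did other scaling factors, other filters on low counts, leaving out libraries and a replicate block.

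The members and lists were chosen with earlier results of these data known. Named genes are all members, the 2 most abundant genes of each other pathway list, every list gene called in any comparison, and the 5 genes most alike to Dusp1, Errfi1, Dusp6 and Spry4. Some genes that this rule names are not reported here. Title letters A to D recur in both conditions. Deviations of same-lettered libraries from their condition means, which still hold the difference between experiments, correlated at 0.18 to 0.4. In every case another letter correlated more (0.211 to 0.543), and within experiments the correlation was -0.186 and -0.219. Both libraries with the most Xist reads carried the letter B. The letters were not taken to pair libraries, though these values do not settle whether they do.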

Additional observations from a re-analysis of the deposited data

Results flagged for a closer look

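Treg-sufficient replicate 4 held 4.80 CPM of Spry4, above the 3.02, 3.31 and 3.05 CPM of Treg-sufficient replicates 1 to 3, a gap large for the range of the 4 libraries by Dixon's criterion. It was the only one of 20 groups of 4 libraries (10 members in 2 conditions) to pass, and chance alone passes about 1 in 20 groups.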

How the results depend on the processing

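Scaling with DESeq2's size factors or upper-quartile factors and limma-voom left every count of genes called within 1.5 times. With DESeq2, experiment 1 had 721 genes called against 100, experiment 2 had 1 against 0, the comparison of conditions 84 against 0, the interaction 182 (4 of them members) against 0 and the comparison of experiments 2167 against 268. Without a filter on low counts the numbers in the same order were 1152, 132, 820, 534 (5 members) and 2443. Without both libraries with the most Xist reads experiment 1 had 487, the interaction 89 and the comparison of experiments 2. Without the libraries with the fewest genes detected, chosen after seeing the data, experiment 1 had 570 and the comparison of experiments 0. The cause was not tested. Leaving out each library in turn gave 0 to 442 genes and 0 to 6 members in experiment 1, 0 to 9 genes for the interaction, 0 to 651 between experiments, and 0 between conditions and in experiment 2. Of the members called in experiment 1, Dusp1 alone also lost its call with upper-quartile factors (3 members called) and with a mean count of at least 50 (3 members called). Only uncalled values changed sign. For Dusp4 the log2 fold change between conditions ran from -0.18 to 0.35 with 1 library left out, negative without Treg-depleted replicate 2, and became -0.14 without the Xist libraries and -0.15 without the libraries with fewest genes. In experiment 1 it ran from -0.85 (without Treg-depleted replicate 2) to 0.63, and became -0.17 with limma-voom, -0.88 without the Xist libraries and -0.81 without those with fewest genes. In experiment 2 it ran from -0.062 to 0.39, negative without replicate 4 of either condition, and its interaction ran from -1.02 to 0.46, positive without Treg-sufficient replicate 4, Treg-depleted replicate 1 or Treg-depleted replicate 4. In experiment 2 Errfi1 ran from -0.039 (without Treg-depleted replicate 3) to 0.11, and Spred1 from -0.096 (without Treg-sufficient replicate 3) to 0.31, with -0.095 without the libraries with fewest genes. The Dusp5 interaction ran from -0.35 to 0.90, negative without Treg-sufficient replicate 2, Treg-sufficient replicate 4 or Treg-depleted replicate 4, and became -0.23 without the Xist libraries. With the title letter as a replicate block, 0 genes were called between conditions, as without it, and Dusp1 stood at 1.59 and Dusp6 at 1.04 (adjusted p = 0.917 for both, edgeR). Dusp4 had the lowest counts of the members, 23 to 120 per library, and depth was not tested as a cause of its spread.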
